A study of Homo sapiens with 10 samples.

Results

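E proteins and their ID inhibitors formed the gene family followed here. It comprises the E proteins TCF3, TCF4 and TCF12 and the inhibitors ID1, ID2, ID3 and ID4, 7 of the 60554 genes in the data. Members were picked by gene symbol, and the family was chosen with earlier results of these data known. TCF4 in this text is the E protein gene (ENSG00000196628.13), not the Wnt pathway factor TCF7L2, whose protein shares that name. The study had reported lower TCF4 in the knockdown cells by qPCR and western blot, and placed it in the Wnt pathway. The 10 RNA-seq libraries came from Caco-2, a human colon carcinoma cell line. All of them, controls included, carry dCAS9-KRAB, a Cas9 that no longer cuts DNA fused to a repressor domain, delivered by lentivirus, and puromycin was used to obtain single clones. A second lentiviral step with hygromycin selection followed. In it these cells received either an empty plasmid (gCtl, n = 5) or a plasmid with a gRNA against the long non-coding RNA LHFPL3-AS2. Libraries with a gRNA are labelled g1 (n = 3) or g2 (n = 2). A clonal line does not show how other clones would respond, and nothing in the labels says whether libraries of a group came from separate cultures, so p-values measure only the spread between these libraries.

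E proteins are basic helix-loop-helix transcription factors that bind the E-box motif CANNTG as dimers, either with each other or with tissue-specific partners such as NEUROD1, TAL1 and ASCL2. ID proteins keep the helix-loop-helix but lack the basic region that touches DNA, so a dimer of an ID and an E protein cannot bind. The balance between both groups is known to set whether cells keep dividing or differentiate, and ID genes are classical targets of BMP signalling through SMAD proteins.

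Depth was 3838803 to 8730468 estimated counts per library. It was 3838803 to 5674360 in gCtl, 4649985 to 8730468 in g1 and 6130698 to 7325087 in g2, so each g2 library was deeper than any gCtl library. A count of 3, taken as the limit of detection, corresponded to 0.365 to 0.750 CPM. CPM here is estimated counts per 1000000 counts of the library after TMM normalization, and limits cover counting error only. Levels of different genes are given in TPM, which divides by transcript length, and in CPM, which does not. Reads here lie near the 3′ end of an RNA and do not scale with its length. TPM therefore lowers genes with long transcripts relative to those with short ones. Sums and shares over several genes name the scale they were taken on, since the scale changes them. LHFPL3-AS2 itself lay between 0.805 and 3.61 CPM in gCtl and between 2.16 and 6.40 CPM in the libraries labelled g1 or g2. It was thus not lower there, on few counts per library (4.39 to 20.7 and 13.2 to 44.0), and no test is given. The study reported its reduction with either guide by qPCR. Libraries labelled g1 or g2 are called the libraries labelled knockdown, and every direction below rests on the labels. Of 9 markers of intestinal epithelium, 8 were above 1 CPM in every library (EPCAM 645 to 872 CPM), while CDX1 did not pass 0.359 CPM. Of 9 markers of other lineages, COL1A1 (3.01 to 8.44 CPM) and PECAM1 were above 1 CPM in every library, and the other 7 were not. PECAM1 was at 2.07 to 3.25 CPM in gCtl and 2.23 to 9.72 CPM in the libraries labelled knockdown, while CD14 was at 2.46 to 3.85 and 0.291 to 1.4997 CPM, and PTPRC and CDH5 reached at most 1.07 and 0.528 CPM. The 9 summed to 9.86 to 16.6 CPM in gCtl and to 9.06 to 25.04 CPM in the libraries labelled knockdown, a shift whose part in the results was not tested.

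Of the 7 genes, 5 (TCF3, TCF4, TCF12, ID1 and ID2) passed the filter on low counts, and ID3 and ID4 did not. A gene was called at an adjusted p of at most 0.05 in edgeR's quasi-likelihood test with a fold change of at least 1.5. In the 5 libraries labelled knockdown against 5 gCtl libraries, TCF4, TCF3 and ID1 were called, all 3 lower, where 19.2% of all 11640 genes tested were called, 11.0% lower and 8.14% higher. For g1 alone the same 3 were called lower (16.8% of all genes called, 9.94% lower and 6.81% higher), and for g2 alone TCF4 and ID1 were (23.7% called, 13.0% lower and 10.7% higher). ID1 passed the filter only through libraries with more of it, 4 of them gCtl, so that its call is partly built into the filter. Both guides were compared with the same 5 gCtl libraries, and their results are therefore not independent.

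**Figure D1:**
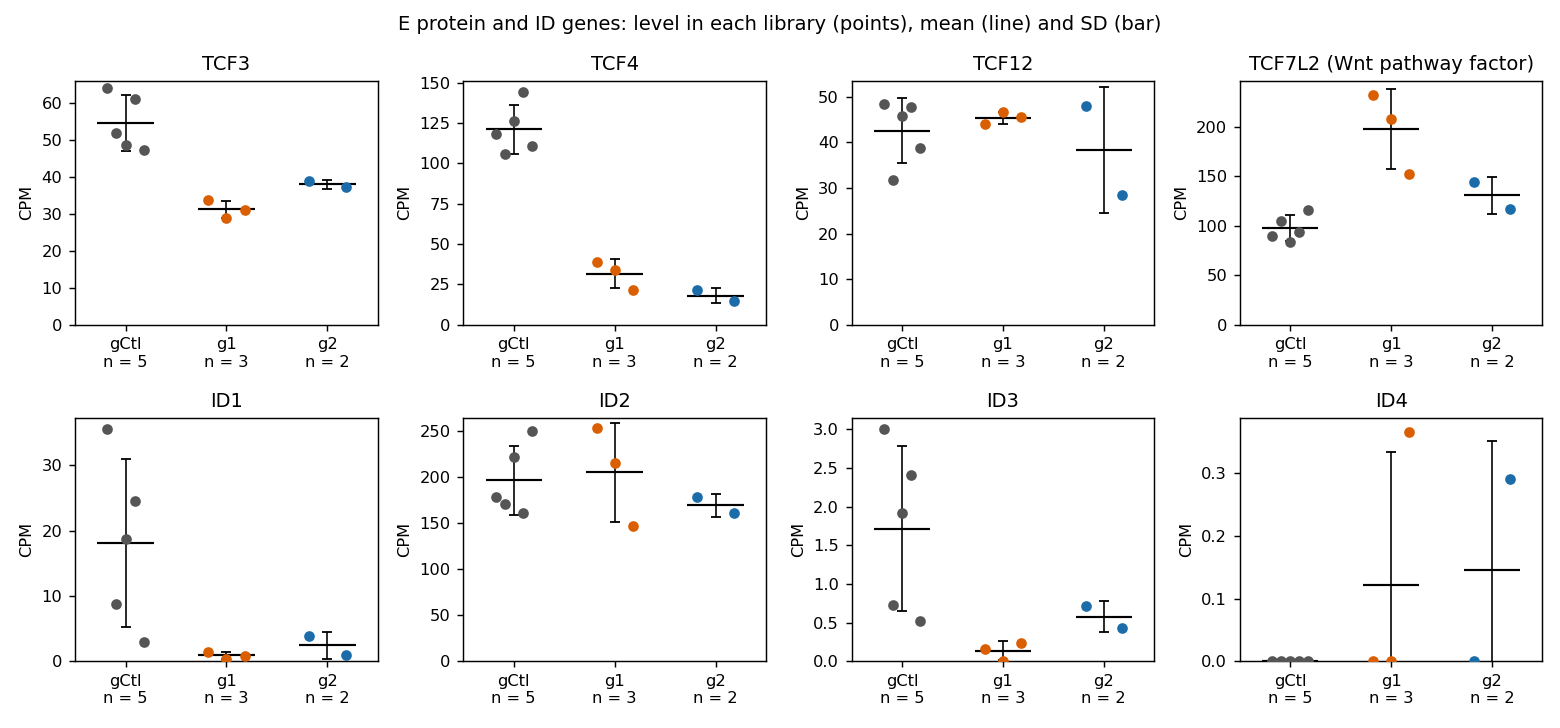
CPM of the 7 E protein and ID genes and of TCF7L2 in each of the 10 libraries (points), with the mean (line) and SD (bar) of gCtl, g1 and g2 on linear axes from 0. TCF4 and TCF3 were lower in all 5 libraries labelled knockdown than in any gCtl library, as were 8.35% of all genes tested. TCF12 and ID2 overlapped between the groups, and ID1 and ID3 spread widely within gCtl.

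Among the E proteins, TCF4 had the largest difference. It lies on chromosome 18 (GRCh38, 55222331 to 55664787, minus strand) and is the E protein linked to neural and plasmacytoid dendritic cell development and to stem cell programs. Its level was 118, 106, 126, 144 and 111 CPM in the 5 gCtl libraries, 38.8, 34.2 and 21.4 CPM in g1, and 21.4 and 14.7 CPM in g2. None of the libraries with a guide reached the gCtl range, as was so for 8.35% of all genes tested. The gap between 38.8 and 106 CPM was wider than the spread of TCF4 within either group. The mean was 121 ± 15.2 CPM (SD, n = 5) in gCtl and 26.1 ± 10.02 CPM (SD, n = 5) in the libraries labelled knockdown, a log2 fold change of -2.22 (SE 0.22, adjusted p = 3.14e-05), or 4.66-fold lower. A drop in bulk RNA of this kind cannot be told apart from a smaller share of cells that express the gene.

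The guides differed in the size of the TCF4 change without passing the test. The log2 fold change against gCtl was -1.95 (SE 0.20, adjusted p = 3.97e-05) for g1 and -2.75 (SE 0.25, adjusted p = 5.63e-06) for g2. Set directly against g1, TCF4 in g2 was lower by a log2 fold change of -0.80 (SE 0.25, 95% interval -1.30 to -0.31), with an unadjusted p of 0.0056 and an adjusted p of 0.0764 in edgeR's test. All of g2 lay below all of g1, with 21.37 and 21.44 CPM as the nearest pair, although 32.9% of all genes separated g2 from g1 in this way. None of the 7 genes was called between the guides, where 4.98% of all genes were, and TCF4 was the only 1 of the 5 tested with an unadjusted p under 0.05. DESeq2 and limma on log2(RPM + 1) each called TCF4 here (adjusted p = 0.0404 and 0.0470), as did edgeR without g1 replicate 3 (0.0186) or without g2 replicate 1 (0.0441).

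TCF3, the gene of the E proteins E12 and E47, lies on chromosome 19 (1609290 to 1652605, minus strand) and fell less. It stood at 64.2, 52.0, 48.7, 61.1 and 47.3 CPM in gCtl, at 33.7, 28.9 and 31.1 CPM in g1 and at 38.9 and 37.2 CPM in g2. The groups did not overlap, as was so for 15.4% of all genes tested, 8.35% with the lower values in the libraries labelled knockdown. The log2 fold change was -0.68 (SE 0.14, adjusted p = 0.0032), or 1.61-fold lower, and it was -0.80 (SE 0.15, adjusted p = 0.00194) for g1. In g2 it was -0.52 (SE 0.17, adjusted p = 0.0348), a 1.43-fold difference that stayed under the minimum of 1.5. When the difference was tested for exceeding 1.5-fold (glmTreat), TCF3 was not called, with an adjusted p of 0.535.

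TCF12, the E protein HEB with roles in lymphoid and mesodermal development, lies on chromosome 15 (56918623 to 57299281, plus strand) and was not called in any comparison. Its level was 48.5, 31.8, 45.9, 47.9 and 38.8 CPM in gCtl, 44.0, 46.6 and 45.7 CPM in g1, and 48.1 and 28.5 CPM in g2. The groups overlapped, with means of 42.6 ± 7.17 and 42.6 ± 8.002 CPM (SD, n = 5 each). The log2 fold change was 0.00 with a 95% interval of -0.32 to 0.33, and its sign depended on the scaling and on the libraries included. These data thus leave room for a change of up to about that size in either direction. RF01210, a snoRNA gene on the opposite strand that overlaps TCF12, had 336 counts over the 10 libraries, against 2374 for TCF12. The strand setting of the counting is not given in the sources used here.

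TCF7L2, the Wnt pathway factor, went the other way from its namesake, with a log2 fold change of 0.81 (SE 0.18, adjusted p = 0.0054). It held 83.2 to 116 CPM in gCtl and 117 to 232 CPM in the libraries labelled knockdown, and for g2 alone it was not called (log2 fold change 0.42, adjusted p = 0.0992).

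**Figure D2:**
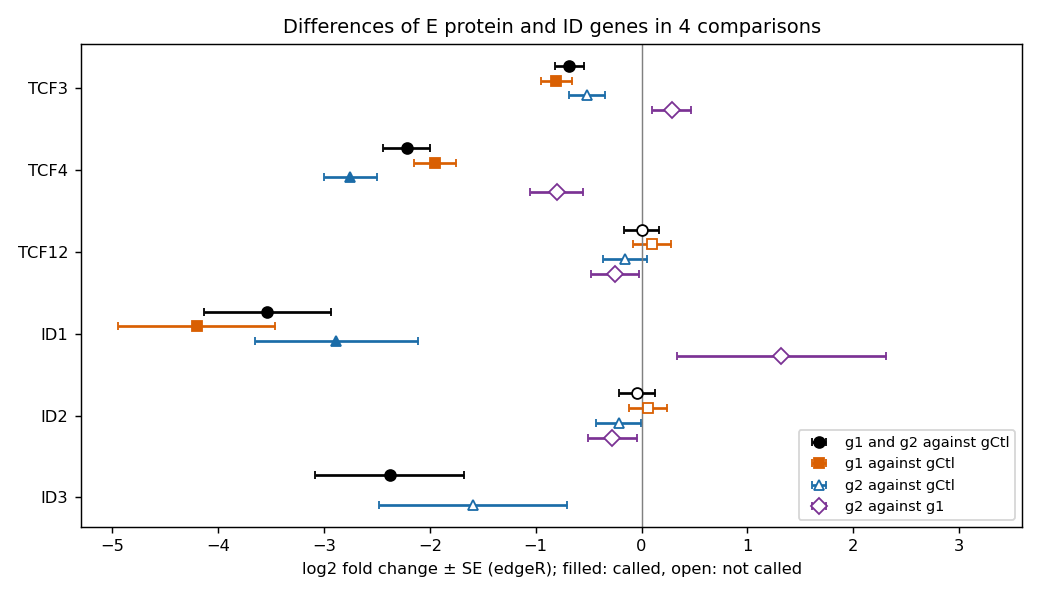
Log2 fold change with its SE from edgeR for the E protein and ID genes (rows) in 4 comparisons (symbols), filled where the gene was called. TCF4 and ID1 lay left of 0 against gCtl with either guide, TCF12 and ID2 straddled 0, and ID3 comes from a fit over all gene biotypes and is drawn only where its groups held enough counts for a fitted value; ID4 had too few counts for any.

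Among the inhibitors, ID1 had the largest difference. ID1 is a direct target of BMP signalling that holds back differentiation in many epithelia, and lies on chromosome 20 (31605283 to 31606515, plus strand). Its level was 35.5, 8.81, 18.7, 24.5 and 2.99 CPM in gCtl, 1.4997, 0.422 and 0.852 CPM in g1, and 3.94 and 1.02 CPM in g2. The gCtl libraries differed among themselves by more than 10-fold, and the lowest of them, replicate 5, lay below g2 replicate 1, while every g1 library lay below every gCtl library, as was so for 13.5% of all genes tested. The values rest on 17 to 142 counts per library in gCtl and on 2 to 22 in the libraries labelled knockdown. The log2 fold change was -3.54 (SE 0.60, adjusted p = 0.00111), and it was -4.21 (SE 0.74, adjusted p = 0.00135) for g1 and -2.88 (SE 0.77, adjusted p = 0.0126) for g2. Without g2 replicate 2 the g2 value was -2.16 and no longer called (adjusted p = 0.141). The difference between the guides had a 95% interval of -0.60 to 3.25 on the log2 scale (adjusted p = 0.478).

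ID3, which shares BMP responsiveness with ID1, lies on chromosome 1 (23557918 to 23559794, minus strand) and was scarce. It had 12, 4, 11, 10 and 3 counts in gCtl, 1, 0 and 2 counts in g1, and 4 and 3 counts in g2. In CPM these were 2.999, 0.734, 1.92, 2.41 and 0.528 in gCtl, 0.167, 0 and 0.244 in g1, and 0.717 and 0.436 in g2. Thus g1 lay below gCtl and g2 overlapped with it. Every g1 library lay below every gCtl library for 13.5% of the genes that passed the filter, a set without ID3. In a fit over 23385 genes of all biotypes, of which 6.49% were called lower, the log2 fold change of the libraries labelled knockdown was -2.38 (SE 0.71, adjusted p = 0.0336). All g1 libraries were at or under 3 counts, which makes ID3 at least 3.44-fold lower in g1 than the gCtl mean, if that mean is taken as exact. The gCtl libraries varied widely, and replicate 5 itself held 3 counts. For g2 the log2 fold change in the same fit was -1.59 (SE 0.88, adjusted p = 0.248). The call for the libraries labelled knockdown was lost when gCtl replicate 1, 3 or 4 or any 1 g1 library was left out (adjusted p = 0.0583 to 0.109).

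ID2, a regulator of lymphoid and mammary development that is also expressed in the gut epithelium, lies on chromosome 2 (8678845 to 8684453, plus strand) and did not pass the test in any comparison. It held 179, 171, 222, 161 and 249.98 CPM in gCtl, 253, 216 and 147 CPM in g1, and 178 and 161 CPM in g2, and the groups overlapped throughout. The log2 fold change was -0.04 with a 95% interval of -0.38 to 0.29 (adjusted p = 0.884). Its antisense neighbour ID2-AS1 had 86 counts over the 10 libraries, and the sources used here do not give the strand setting of the counting.

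ID4, on chromosome 6 (19837386 to 19840684, plus strand), was listed at 0 counts in all 5 gCtl libraries. It had 3 counts in g1 replicate 3, 2 counts in g2 replicate 2 and none elsewhere, all at or under the limit of detection, so no fold is given.

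The 250 bases before the RefSeq transcription start are shown for the 2 inhibitors that were called lower and for ID2, which was not. They are from RefSeq on GRCh38.p14, read 5′ to 3′ on the strand of the gene, with E-box matches (CANNTG, which reads the same on both strands) in capitals. RefSeq windows were found for all 7 genes, 10 of them for TCF4 and 5 for TCF12, whose many starts are not distinguished by reads from the 3′ end.
ID1, chr20:31605039-31605288, plus strand: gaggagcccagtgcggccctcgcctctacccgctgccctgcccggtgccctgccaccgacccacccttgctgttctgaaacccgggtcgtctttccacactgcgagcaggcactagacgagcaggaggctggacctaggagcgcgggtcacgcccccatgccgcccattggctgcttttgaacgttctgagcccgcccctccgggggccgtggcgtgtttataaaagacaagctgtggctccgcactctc
ID2, chr2:8681806-8682055, plus strand: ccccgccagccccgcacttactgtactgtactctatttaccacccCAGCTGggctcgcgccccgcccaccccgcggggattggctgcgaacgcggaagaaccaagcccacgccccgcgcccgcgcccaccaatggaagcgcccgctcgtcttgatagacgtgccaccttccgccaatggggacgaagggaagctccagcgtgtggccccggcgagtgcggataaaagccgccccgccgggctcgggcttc
ID3, chr1:23559502-23559751, minus strand: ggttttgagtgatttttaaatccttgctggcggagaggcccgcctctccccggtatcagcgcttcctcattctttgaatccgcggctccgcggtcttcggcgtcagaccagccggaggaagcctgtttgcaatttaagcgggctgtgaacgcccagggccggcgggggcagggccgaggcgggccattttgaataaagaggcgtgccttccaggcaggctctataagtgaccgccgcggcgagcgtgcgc
ID2 held 1 E-box in this window, 205 bases before the start, and ID1 and ID3 held 0. Over all 34788 distinct RefSeq windows of this length, 61.8% held at least 1. The letters GGCGCC, a GC-rich sequence found in BMP-responsive ID1 elements, also identical on both strands, were in none of the 3 windows and in 16.4% of all windows. Matches describe these letters alone, and elements farther from the start were not examined.

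Taken per length, the order of the E proteins differed between the groups. In gCtl, TCF4 stood at 38.4 ± 6.004 TPM, TCF3 at 35.5 ± 8.95 TPM and TCF12 at 24.7 ± 3.24 TPM (SD, n = 5), so TCF4 and TCF3 did not differ beyond their spread on this scale. In CPM, which fits reads that do not scale with length, TCF4 (106 to 144) lay above TCF3 (47.3 to 64.2) in every gCtl library. The nearness of TCF4 and TCF3 thus appears only after division by length. In the libraries labelled knockdown TCF12 stood at 28.2 ± 6.57 TPM, TCF3 at 22.0 ± 1.99 TPM and TCF4 at 10.5 ± 3.73 TPM (SD, n = 5). TCF4 moved from 39.0% ± 3.56 of the summed E protein TPM to 16.9% ± 4.46, and TCF12 from 25.2% ± 2.98 to 46.0% ± 6.24. On read counts, which QuantSeq does not scale with length, the share of TCF4 in the E protein counts was 51.2% to 57.1% in gCtl and 18.3% to 33.3% in the libraries labelled knockdown. ID2 held 89.2% to 99.3% of the ID TPM in gCtl and 98.5% to 99.9% in the libraries labelled knockdown.

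The sum of the E proteins over the sum of the IDs was 1.06, 1.05, 0.910, 1.35 and 0.777 in the gCtl libraries when taken in CPM. It was 0.457, 0.507 and 0.659 in g1 and 0.592 and 0.495 in g2, all below the lowest gCtl value. In TPM the groups overlapped, with ratios of 0.138 to 0.262 in gCtl and 0.0936 to 0.171 in the libraries labelled knockdown. Counts from these reads do not scale with length, so CPM is the closer scale for such sums. With TCF4 left out of the sum, the ratio in CPM was 0.340 to 0.580 in gCtl and 0.305 to 0.515 in the libraries labelled knockdown, so that most of the difference sat in TCF4 counts. These ratios combine chosen genes and carry no test.

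**Figure D3:**
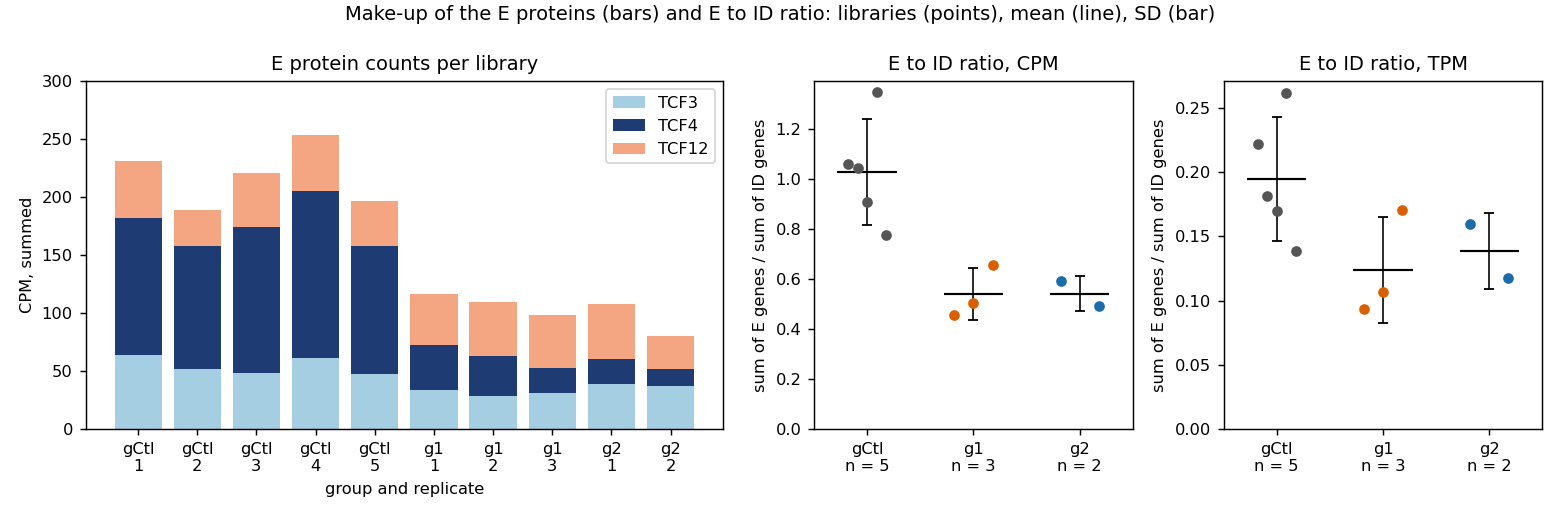
Left, CPM of TCF3, TCF4 and TCF12 stacked for each of the 10 libraries. Right, the ratio of summed E protein to summed ID genes per library in CPM and in TPM (points), with the mean (line) and SD (bar) of each group; the ratio separated gCtl from the rest in CPM (0.777 to 1.35 against 0.457 to 0.659) and not in TPM.

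Because QuantSeq reads lie near the 3′ end of an RNA, the counts of TCF4 could be placed at annotated ends. Estimated counts of transcripts that end within 100 bases of each other in GENCODE were summed, and 3 ends of TCF4 each held at least 5% of the gene's counts. The distal end (transcript TCF4-201, chr18:55222331) held 71.5, 61.1, 69.8, 85.2 and 59.8 CPM in gCtl, 14.2, 12.7 and 6.46 CPM in g1, and 7.56 and 2.88 CPM in g2. This is a ratio of the means of 7.93 between gCtl and the libraries labelled knockdown. The middle end (TCF4-044) had 16.2 to 30.7 CPM in gCtl and 0 to 12.3 CPM in the libraries labelled knockdown. The proximal end (TCF4-015) had 17.8 to 40.5 CPM and 10.8 to 14.9 CPM, a ratio of the means of 2.16. In CPM each of the 3 ends was thus lower in every library labelled knockdown than in any gCtl library. In estimated counts before scaling for depth, the middle and proximal ends overlapped between the groups. Separation of whole genes in CPM is not rare, at 8.35% of all genes tested in this direction.

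The distal end lost more than the proximal one. It held 54.0% to 60.5% of TCF4 counts in gCtl (mean 57.4% ± 2.66, SD, n = 5) and 19.6% to 37.2% in the libraries labelled knockdown (mean 31.8% ± 7.34, SD, n = 5), with no overlap. The exact two-sided permutation test gave p = 0.00794, the smallest that 5 against 5 libraries allow. Adjusted over only the 4 genes of the family with at least 2 ends, it was 0.0159. No such test was planned, and no adjustment was made over all 5708 genes with 2 or more ends. Any gene without overlap reaches the same smallest p, and 4.92% of the 5708 did so with a lower distal share and 2.21% with a higher one. Of 5708 genes with 2 or more ends, 4.92% had a lower share in each library labelled knockdown than in any gCtl library, the median difference was -2.77 percentage points, and 62.5% had a lower distal share. The difference for TCF4 was -25.6 points, and 4.01% of these genes had a larger decrease. Kallisto divides reads that fit a long and a short transcript between them, so shares between ends are estimates.

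Distal shares of the other genes were also lower on average, and their p-values are likewise adjusted over these family genes only. TCF3 went from 81.4% ± 3.45 to 69.0% ± 6.01 with no overlap (exact two-sided permutation test, adjusted p = 0.0159), and 18.4% of all genes with 2 or more ends had a larger decrease. TCF12 went from 70.2% ± 6.66 to 59.1% ± 9.99 with overlap (exact test, adjusted p = 0.0714), and 20.99% of genes had a larger decrease. ID2 had only 15.5% ± 5.76 of its counts at the end of its protein-coding transcript ID2-201 in gCtl and 7.38% ± 4.19 in the libraries labelled knockdown (exact test, adjusted p = 0.0423), and 29.9% of genes had a larger decrease. The rest of ID2 was assigned to ID2-003, annotated as a retained intron, whose end lies at 8684031, upstream of that of ID2-201 at 8684451.

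**Figure D4:**
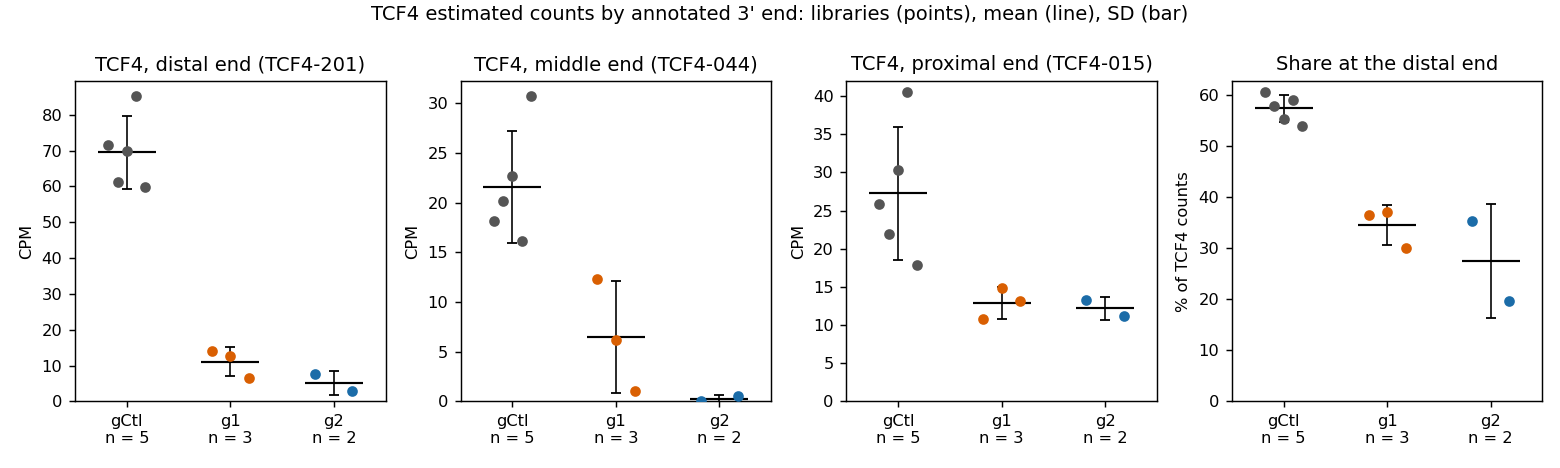
CPM assigned to the distal, middle and proximal annotated 3′ ends of TCF4 in each library (points), and the percent of TCF4 counts at the distal end, with the mean (line) and SD (bar) of each group. The distal end fell from 59.8 to 85.2 CPM in gCtl to 2.88 to 14.2 CPM in the libraries labelled knockdown, and its share from above 50% to below 40%.

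Of 48 genes of basic helix-loop-helix partners of E proteins 6 passed the filter on low counts and were tested. Over all genes tested 8.14% were called higher and 11.0% lower in the libraries labelled knockdown. Among the 6, 0 were called higher and 1 lower there (median log2 fold change -0.05, against 0.02 over all genes tested). That one was TCFL5, best known from germ cells, with 9.74 ± 2.62 CPM in gCtl and 5.37 ± 0.85 CPM in the libraries labelled knockdown (log2 fold change -0.85, SE 0.24, adjusted p = 0.0198), a call lost without gCtl replicate 4 (adjusted p = 0.0505). NEUROD1, the enteroendocrine and neuronal partner, was called lower in g1, from 2.36 to 10.3 CPM in gCtl to 0.684 to 1.78 CPM (log2 fold change -2.20, SE 0.53, adjusted p = 0.00953), and had a log2 fold change of -0.50 in g2 (adjusted p = 0.511). The difference of NEUROD1 between the guides missed the threshold (adjusted p = 0.131). ASCL2, the intestinal stem cell factor, was not called, with 57.8 CPM in gCtl and 50.8 CPM in the libraries labelled knockdown.

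Of 21 cofactors that E proteins recruit 15 were tested, and 1 was called higher and 1 lower in the libraries labelled knockdown. The shares over all genes were 8.14% higher and 11.0% lower, and the median log2 fold change was -0.06, against 0.02 over all genes tested. HDAC3, the histone deacetylase of corepressor complexes, stood at 12.5 to 19.6 CPM in gCtl and 5.52 to 10.6 CPM in the libraries labelled knockdown (log2 fold change -0.93, SE 0.22, adjusted p = 0.00677). LDB1, which bridges LIM-domain proteins and E protein dimers, was scarce, at 1.23 ± 1.07 and 3.55 ± 0.82 CPM. Its log2 fold change was 1.52 (SE 0.50, adjusted p = 0.0367 in edgeR's test), and its call was lost on leaving out any of 6 single libraries. LDB1 exceeded 3 RPM mostly in libraries labelled knockdown, so that its call is partly built into the filter on low counts. The acetyltransferase gene CREBBP was called higher in g1 (log2 fold change 0.71, SE 0.13, adjusted p = 0.00208) and KAT2A lower (log2 fold change -1.13, SE 0.31, adjusted p = 0.0181), the latter not without g1 replicate 2 or 3. In g2 the corresponding values were 0.31 (adjusted p = 0.149) and -0.28 (adjusted p = 0.569), and neither difference between the guides passed (adjusted p = 0.192 and 0.204). HDAC1 was called lower in g1 (log2 fold change -0.64, adjusted p = 0.0342), with a difference between the guides that did not pass (adjusted p = 0.0594). HDAC2 was called higher in g2 (0.62, adjusted p = 0.00499). Between the guides 2 of the 15 were called, both higher in g2: HDAC2 (0.59, adjusted p = 0.0396) and LMO4 (0.69, adjusted p = 0.0479). Over all genes 4.98% were called there.

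Of 21 genes listed as inputs to ID transcription 14 were tested, and 2 were called higher, 2 lower and 10 not at all in the libraries labelled knockdown, where 8.14% of all genes were called higher and 11.0% lower. The median log2 fold change of the 14 was 0.045, against 0.02 over all genes tested. The secreted ligand BMP4 was at 138, 197, 209, 213 and 278 CPM in gCtl, 88.3, 90.5 and 93.8 CPM in g1, and 26.2 and 32.7 CPM in g2, without overlap between any of the groups. Over all genes tested 15.4% separated the libraries labelled knockdown from gCtl, and 32.9% separated g2 from g1. The next values are those of BMP4. Its log2 fold change was -1.19 (SE 0.19) for g1 and -2.81 (SE 0.25) for g2, and the difference between the guides of -1.62 (SE 0.24) was called (adjusted p = 0.00157). BMP7, a related ligand, was at 11.4 to 15.7 CPM in gCtl and 2.28 to 4.67 CPM in the libraries labelled knockdown, with a log2 fold change of -2.10 (SE 0.23, adjusted p = 5.87e-05).

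BMP2, a further ligand of the same receptors, rose. It held 5.32 to 11.4 CPM in gCtl, 18.5, 13.7 and 27.5 CPM in g1, and 16.0 and 15.4 CPM in g2 (log2 fold change 1.17, SE 0.26, adjusted p = 0.0054). ATF3, a stress-induced factor that represses ID1 in other cells, rose from 2.203 to 6.498 CPM to 6.54 to 21.6 CPM (log2 fold change 1.29, SE 0.34, adjusted p = 0.0128), the nearest libraries of both groups differing by less than 0.05 CPM. For g1 alone the ATF3 value was 1.35, and 0.63 and not called without g1 replicate 3 (adjusted p = 0.271). The SMAD genes SMAD1, SMAD4 and SMAD5, which carry the BMP signal to the nucleus, were not called, at log2 fold changes of -0.12, 0.23 and -0.18 for both guides together. The receptor gene BMPR1A was not called there either, at 0.55 (adjusted p = 0.0213), because its fold change stayed under 1.5. In g2 alone BMPR1A was called higher (log2 fold change 0.72, SE 0.19, adjusted p = 0.0118), in g1 it was at 0.42 (adjusted p = 0.0908), and the difference between the guides did not pass (adjusted p = 0.452).

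**Figure D5:**
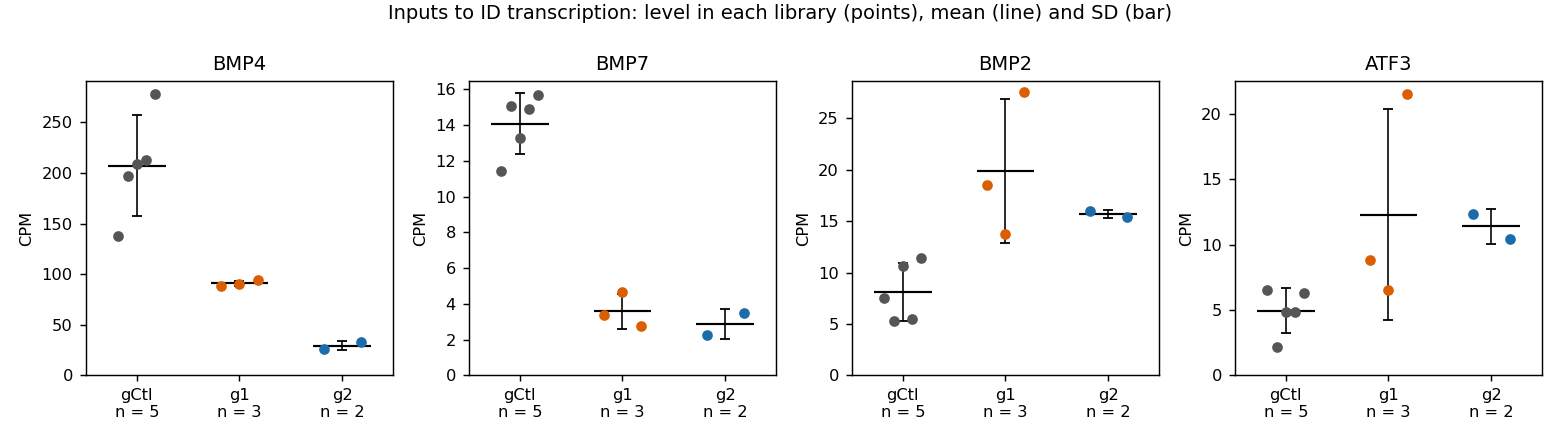
CPM of the BMP ligand genes BMP4, BMP7 and BMP2 and of ATF3 in each library (points), with the mean (line) and SD (bar) of gCtl, g1 and g2. BMP4 and BMP7 lay lower and BMP2 and ATF3 higher in all 5 libraries labelled knockdown than in any gCtl library, and BMP4 also separated g2 (26.2 and 32.7 CPM) from g1 (88.3 to 93.8 CPM). Such separation was seen for 15.4% of all genes tested against gCtl and for 32.9% between the guides.

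Of 11 genes that act on the turnover of ID or E proteins 10 were tested, and 0 were called higher and 2 lower in the libraries labelled knockdown. The shares over all genes were 8.14% higher and 11.0% lower, and the median log2 fold change was -0.28, against 0.02 over all genes tested. CDC20, an activator of the anaphase-promoting complex, fell from 17.5 ± 4.38 to 7.16 ± 2.10 CPM (log2 fold change -1.30, SE 0.25, adjusted p = 0.00201). SKP2, the substrate adaptor of an SCF ubiquitin ligase, fell from 89.3 ± 24.8 to 48.4 ± 15.2 CPM (log2 fold change -0.89, SE 0.23, adjusted p = 0.0125), with overlap between the groups. PSMD4, a ubiquitin receptor of the proteasome, was called lower in g2 only, with a log2 fold change of -0.65 (adjusted p = 0.0277) against -0.22 in g1 (adjusted p = 0.383), a difference between guides that did not pass (adjusted p = 0.278), and a call lost without gCtl replicate 2 or g2 replicate 1. USP1, the deubiquitinase that stabilises IDs, was not called at a log2 fold change of -0.25 (adjusted p = 0.176).

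Of 14 genes named in textbooks as controlled by E proteins or IDs 10 were tested, and 1 was called higher and 1 lower in the libraries labelled knockdown. The shares over all genes were 8.14% higher and 11.0% lower, and the median log2 fold change was -0.09, against 0.02 over all genes tested. CDKN2A, the gene of the cell cycle inhibitor p16, which E proteins activate, stood at 14.9 ± 4.66 CPM in gCtl and 7.59 ± 3.09 CPM in the libraries labelled knockdown (log2 fold change -0.97, SE 0.29, adjusted p = 0.0245). Its neighbour CDKN2B stood at 2.95 ± 0.65 and 5.21 ± 1.34 CPM (log2 fold change 0.83, SE 0.29, adjusted p = 0.0472). Both calls depended on single libraries: that of CDKN2A was lost on leaving out any of 4 and that of CDKN2B on leaving out any of 7. ZEB2, an E-box repressor gene, was called higher in g2 (log2 fold change 1.13, SE 0.32, adjusted p = 0.0162), not without g2 replicate 2 (0.58, adjusted p = 0.351). The E-box genes CDH1 and CDKN1A were not called, at log2 fold changes of -0.33 and 0.67.

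The 5 genes whose log2(RPM + 1) followed TCF4 most closely over the 10 libraries were CDH3 (P-cadherin), IGDCC3, POLR2G (an RNA polymerase II subunit), SEMA3A (a secreted guidance cue) and DAG1 (dystroglycan), with Pearson's r of 0.986 to 0.990. The libraries fall into 2 groups, so these values describe the difference between groups as well as the spread within them, and no p is given. CDH3 stood at 71.9 to 92.7 CPM in gCtl, 22.7 to 36.7 CPM in g1 and 24.1 and 13.7 CPM in g2. Among the family itself, r with TCF4 was 0.873 for TCF3, 0.806 for ID1, 0.433 for ID2 and 0.402 for TCF12. Over all genes tested these were ranks 714, 1361, 4392 and 4600, so many genes outside the family followed TCF4 more closely.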

How the data were processed

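RNA was taken from 10 Caco-2 libraries, sequenced as single-end Lexogen QuantSeq 3′ mRNA-Seq. The authors assigned reads to GENCODE v24 transcripts with Kallisto (version 42.5 in the submitters' processing notes) and deposited estimated counts per transcript, neither normalized nor pooled, for 199169 transcripts. Here they were summed per gene and rounded. The 11640 genes with a protein-coding transcript that exceeded 3 RPM in 20% or more of the libraries were fitted with edgeR 4.0.16 (TMM, glmQLFit, glmQLFTest) in R 4.3.3, with Benjamini-Hochberg adjustment over all genes tested. The 2-group fit set the libraries labelled knockdown against gCtl, and the 3-group fit gave each guide and g2 against g1. Intervals are the log2 fold change ± 1.96 SE. ID3 was tested in a fit without the biotype and RPM filters, over genes holding 10 or more counts. TPM was computed from annotated lengths, and 3′ ends come from GENCODE v29 (GRCh38), matched by transcript.

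The family, the lists and the tests were chosen with earlier results of these data known. Named genes are the family, TCF7L2, BMP4, BMP7, at most 4 called genes per list with the largest changes, and the 5 genes most correlated with TCF4. SMAD1, SMAD4, SMAD5, BMPR1A, USP1, ASCL2, HDAC1, HDAC2, LMO4, CDH1 and CDKN1A were named after their values were seen. Depth was 3838803 to 8730468 counts per library. Alternatives were DESeq2 1.42.0, limma 3.58.1 on log2 values, other scalings, filters and thresholds, and each library left out. The edgeR (with glmTreat), DESeq2 and limma fits were tested on simulated data, and the other steps were not.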

Additional observations from a re-analysis of the deposited data

Results flagged for a closer look

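In 32 sets of 5 libraries (gCtl, or g1 and g2 together) the highest and lowest library were compared with the rest by Dixon's criterion, which chance meets in about 1 of 20 sets, and 3 sets met it. TCF12 stood at 28.5 CPM in g2 replicate 2, while the next lowest library labelled knockdown held 44.0 CPM. TCF4 made up 51.2% of the E protein counts in gCtl replicate 1, where the next lowest gCtl library had 55.8%. ID1 made up 2.15% of the ID counts in g2 replicate 1, and the next highest library labelled knockdown had 0.626%. None of the 5 tested genes of the family differed between g2 and g1 at an adjusted p of 0.05 in edgeR's test, and TCF4 alone had an unadjusted p under 0.05.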

How the results depend on the processing

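TCF4 was called lower under all 22 alternatives for both guides together (log2 fold change -2.41 to -1.84), and under all 23 for each guide. ID1 was called under all 22 for both guides together (-4.19 to -2.76) and all 23 for g1, and lost its call in g2 without g2 replicate 2. TCF3 lost its call for both guides together and for g1 only when tested against a fold change of 1.5, and in g2 it was called under 4 alternatives. The sign of TCF12 in both guides together turned under library totals (-0.087), limma on log2(RPM + 1) (-0.10), all biotypes above the RPM filter (-0.029) and all biotypes with 10 or more counts (-0.041), and ran from -0.088 to 0.11 with single libraries left out. Likewise it ran from -0.58 to 0.19 in g2 and from -0.66 to 0.10 for g2 against g1. ID2 ran from -0.16 to 0.048 in both guides and from -0.12 to 0.24 in g1, never called. The call of TCF7L2 was lost on log2(TPM + 0.1) (0.76) and against a fold change of 1.5 (0.81). Between the guides TCF7L2 was called on log2(TPM + 1) (-0.99) and log2(TPM + 0.1) (-0.998), and it ran from -0.74 to -0.44 with single libraries left out, called without g1 replicate 3 (-0.74, adjusted p = 0.0436). The alternatives for ID3, the joining distances for TCF4 ends and the ratio without TCF4 were chosen after seeing the data. With libraries left out ID3 ran from -2.84 to -2.08 in both guides and from -3.94 to -2.91 in g1, and each call was lost without any of 6 libraries. These are fitted values that rest on 0 to 2 counts per g1 library and give no bound. In g2 against gCtl 1 to 2 family genes were called with libraries left out (1 without g2 replicate 2). Between the guides 0 to 1 were (1, TCF4, without g1 replicate 3 or g2 replicate 1), and DESeq2, library totals and limma on log2(RPM + 1) called 1 each. The log2 ratio of E proteins to IDs differed by -0.91 in CPM, by -0.59 in TPM and by -0.16 with TCF4 left out. Joining ends within 25 or 500 bases did not move the TCF4 distal share. The cause of these shifts was not tested.

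Over all genes 2232 were called for both guides together and 488 against a fold change of 1.5. For g1 these were 1950 and 506, for g2 2757 and 802, and between the guides 580 and 92. Without g1 replicate 3 there were 1256 calls for g1, without g2 replicate 2 there were 1498 for g2, and between the guides there were 267 or 314 without g1 replicate 1 or 2 and 159 with only both guides fitted. Library totals moved the median of all genes in g2 to -0.16, so changes in g2 are relative to that shift there. No paired analysis was possible because the labels carry no replicate numbers. Depth limits ID3 and ID4, which had 50 and 5 counts over the 10 libraries.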

Other observations

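In gCtl, where ID1 varied by the largest fold among the family genes with counts, ID3 followed the same order of libraries. Replicate 1 had the most of both (35.5 CPM of ID1 and 2.999 CPM of ID3), then replicates 4, 3 and 2, and replicate 5 the least (2.99 and 0.528 CPM). ID2 did not share this order: it was highest in replicate 5, at 249.98 CPM, and lowest in replicate 4, at 161 CPM. BMP4 was also highest in replicate 5, at 278 CPM, and lowest in replicate 1, at 138 CPM. Replicates 1 and 4, with the most ID1, were also the shallowest of the gCtl libraries, and the part of depth in this order was not tested. The order was noticed in the data, rests on 3 to 12 counts of ID3 per library and carries no test.

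TCF3 counts at its proximal end (transcript TCF3-005) differed between the guides in their range, at 11.7 and 12.5 CPM in g2 and 2.11 to 7.63 CPM in g1, next to 7.23 to 13.3 CPM in gCtl. At the distal end the guides were closer, at 25.5 and 25.9 CPM in g2 and 19.0 to 24.1 CPM in g1, both below the 38.3 to 51.4 CPM of gCtl.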
